A study of Canis lupus familiaris with 45 samples.

Results

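In the paced dog heart, the step between 2 weeks of rapid pacing and end-stage failure was followed by comparing the left ventricles of 3 End-stage dogs with those of 3 Week-2 dogs. All arrays with either label were taken, which gave 18 of the 45 arrays of the series, 9 per stage, and 6 of its 15 dogs. The End-stage dogs had been paced for 3 to 4 weeks, with failure verified by hemodynamic measurement, and the Week-2 dogs for 2 weeks. Both groups were male, age-matched dogs paced at 240 beats per minute from the right ventricle, and the series also held dogs paced for 3 days (Day-3), dogs paced for 1 week (Week-1) and unpaced controls (Day-0), 3 dogs each. Each dog was taken to be sampled at 1 stage only, so the stages are read as different animals. Arrays labelled End-stage dog 1 and Week-1 dog 1 matched across these labels, as given below. The tissue was transmural left ventricle. From every dog, 3 RNA isolations were made and run on separate Affymetrix canine arrays, which serve here as technical replicates.

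Sustained rapid pacing is a standard large-animal route to dilated heart failure: the ventricle dilates, pumping falls, and neurohormonal systems are activated. Failing ventricle is known for a fetal pattern of contractile genes, weaker calcium cycling, more extracellular matrix and a loss of fatty acid oxidation. The question here is which transcripts differ between a ventricle that is already impaired and one in overt failure.

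Between the dogs at End-stage and those at Week-2, no transcript passed the test, and MYH7 and ATP2A2, a contractile and a calcium pump gene of the failing heart, differed by 0.00 and -0.01 on the log2 scale. By unadjusted values, DKK3, a secreted glycoprotein of the Dickkopf family of Wnt modulators, lay lower at End-stage on all 3 of its probe sets. LPL, the lipase that releases fatty acids from circulating lipoproteins for the heart, lay higher at End-stage on both of its probe sets. The 10 immediate early genes measured, among them FOS, JUNB and IER2, all had lower means at End-stage, although their dogs overlapped.

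The test was limma's moderated test on log2 signals averaged over the 3 arrays of a dog, fitted over all 15 dogs, with Benjamini-Hochberg adjustment over the 14301 probe sets tested and a threshold of 0.05. At this threshold 0 of 14301 probe sets (0%) were called by limma, and the smallest adjusted p was 0.999. At an unadjusted p under 0.05, 600 probe sets (4.20%) differed, 271 of them higher (1.89%) and 329 lower (2.30%) at End-stage. The 3 End-stage dogs all lay outside the range of the 3 Week-2 dogs for 1327 probe sets (9.28%), 555 above (3.88%) and 772 below (5.40%). A single gene symbol was attached to 7674 of the tested probe sets, which stood for 5278 of the 6540 genes named on the array. Each gene was represented by its probe set with the highest mean signal: 171 of the 5278 genes (3.24%) had an unadjusted p under 0.05, and 438 (8.30%) had dogs that did not overlap, 210 above (3.98%) and 228 below (4.32%). With group labels drawn at random and dogs unpaired, a share of about 0.05 would be expected at this p. Without overlap the expected share would be 0.1. The shares seen in this unpaired fit, for probe sets and for genes, were no larger than these. Where same-numbered dogs deviate together, as they did here, these expected shares need not hold. With the dog number as a block over the 6 dogs, 452 probe sets were higher and 441 lower at this p. Together they exceeded a share of 0.05 of the 14301 tested.

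The last step had the smallest share of unadjusted differences among the 7 comparisons made in the same fit, which did not pair the dogs by number. That share was 8.07% at Day-3, 9.0% at Week-1, 11.2% at Week-2 and 8.23% at End-stage, each against Day-0. Between successive paced stages it was 4.82% for Week-1 against Day-3, 5.78% for Week-2 against Week-1 and 4.20% for End-stage against Week-2. The share with dogs that did not overlap was 12.6% at Day-3, 16.1% at Week-1, 17.3% at Week-2 and 14.3% at End-stage, each against Day-0. It was 9.31% for Week-1 against Day-3, 11.2% for Week-2 against Week-1 and 9.28% for End-stage against Week-2. Probe sets past the adjusted threshold numbered 4 (0.0280%) for Week-1, 12 (0.0839%) for Week-2 and 2 (0.0140%) for End-stage, each against Day-0, and 0 in the other comparisons. These comparisons share dogs, and the differences between their shares were not tested. At an unadjusted p under 0.05, a block on dog number over the 6 compared dogs gave 452 probe sets higher and 441 lower. Together these were a larger share of the 14301 probe sets than the 4.20% without the block. A block of this kind was not fitted for the other steps, so their order with dogs paired is not known.

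**Figure D1:**
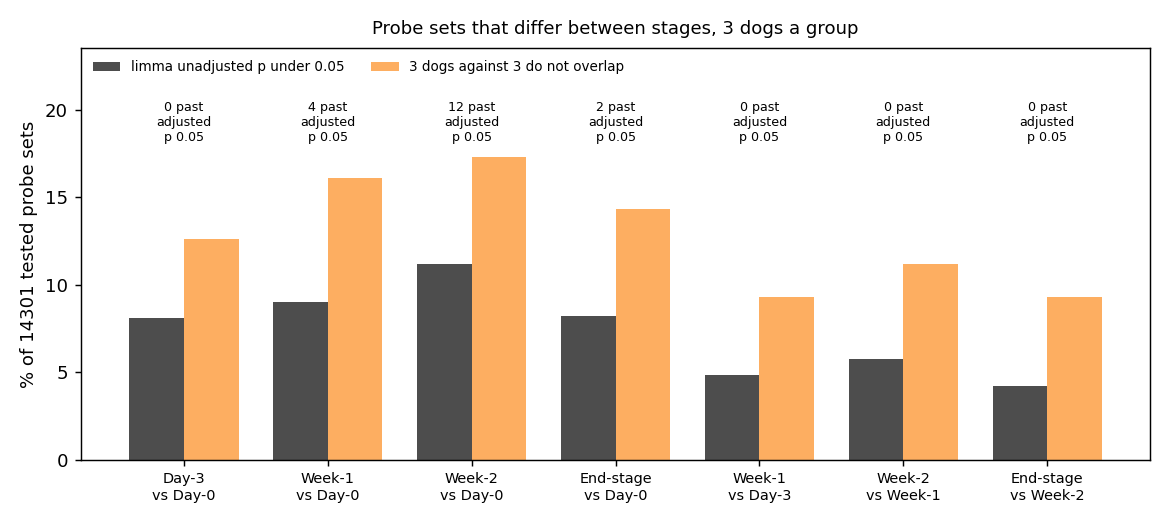
Share of the 14301 tested probe sets (y axis, percent) with a limma unadjusted p under 0.05 (dark bars) and with 3 dogs against 3 that do not overlap (light bars), for 7 comparisons of stages (x axis); the number past the adjusted threshold stands above each pair. End-stage against Week-2, at the right, has 4.20% and 9.28% and no probe set past the adjusted threshold.

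How large a difference could have been missed was read from the intervals of the main fit, in which dogs were not paired by number. The 95% interval of the End-stage minus Week-2 difference lay within 2-fold in both directions for 11458 probe sets (80.1%) and within 1.5-fold for 6271 (43.9%). Among the 5278 genes, 4562 (86.4%) had an interval within 2-fold. The median standard error was 0.22 on the log2 scale. Across genes the middle of the distribution was narrow, with a median difference of 0.00 and with percentiles 10 and 90 at -0.28 and 0.26; 29 genes differed by more than 2-fold in either direction.

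The arrays were checked before the genes were compared. RNA quality was read from the control probe sets: the 3′ over 5′ ratio of GAPDH was 0.957 ± 0.030 in End-stage dogs and 0.933 ± 0.037 in Week-2 dogs (SD, n = 3 each; exact two-sided permutation p = 0.5, where the smallest possible is 0.1). The median signal of an array lay at 43 or above on 1 of 9 End-stage arrays and on 5 of 9 Week-2 arrays. It averaged 37.5 ± 2.8 over End-stage dogs and 41.2 ± 2.0 over Week-2 dogs (SD, n = 3 each; exact permutation p = 0.2). With only the arrays under 43, which kept every dog and was a choice made after the medians were seen, again 0 probe sets were called, with 282 higher and 211 lower at an unadjusted p under 0.05. This choice left 4 Week-2 arrays, and Week-2 dogs 1 and 2 kept isolation 2 alone. At End-stage it dropped isolation 1 of dog 1. Values on arrays under 43 therefore rest on few Week-2 arrays.

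**Figure D2:**
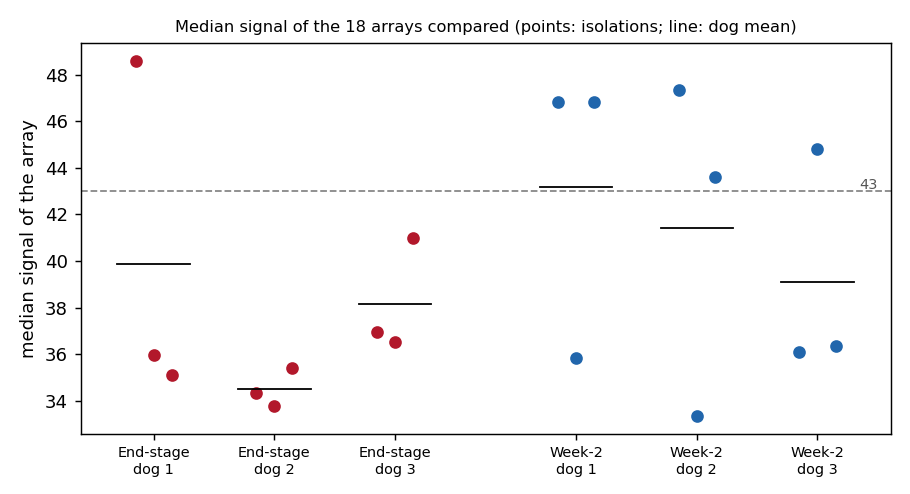
Median signal (y axis) of each of the 18 arrays, by dog (x axis), with End-stage dogs at the left and Week-2 dogs at the right; points are RNA isolations and lines are dog means. Above the dashed line at 43 lie 1 End-stage array and 5 Week-2 arrays.

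The 3 arrays labelled End-stage dog 1 did not match one another. Arrays were correlated over 200 probe sets that told dogs of the other numbers apart. Over these, isolation 1 of this dog had r = -0.39 and -0.37 with its isolations 2 and 3, while those isolations had r = 0.95 with each other. The arrays labelled Week-1 dog 1 did not match one another either: isolation 2 had r = -0.39 and -0.29 with isolations 1 and 3, which had r = 0.72 with each other. In the 13 other dogs, arrays of the same dog had r between 0.43 and 0.97. Isolation 1 of End-stage dog 1 was close to isolation 2 of Week-1 dog 1 (r = 0.77). Isolations 2 and 3 of End-stage dog 1 were close to isolation 3 of Week-1 dog 1 (r = 0.93 and 0.94) and to its isolation 1 (r = 0.76 and 0.75). Other arrays of different dogs with the same number reached at most r = 0.29. Whether isolations were exchanged between these dogs was not tested, and the End-stage and Week-1 means follow the labels. The main counts and the leading genes are also given without the arrays labelled End-stage dog 1. Without it, 0 probe sets were called, and 231 were higher and 477 lower at an unadjusted p under 0.05.

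Markers of cell types were read from lists, each gene through its brightest probe set. Cardiomyocyte markers, 12 of 16 tested, had a median difference of 0.00, with a range from -0.04 to 0.27. ACTC1 and ACTN2, cardiac actin and the Z-disc protein actinin, differed by 0.07 (SE 0.22) and 0.05 (SE 0.18), and MB, the oxygen store myoglobin, by -0.04 (SE 0.21). Cardiomyocyte markers were bright in every dog: MB had log2 signals of 12.86, 13.29 and 13.32 in End-stage dogs, against 12.98, 13.18 and 13.45 in Week-2 dogs. Endothelial markers had a median of 0.09 (9 of 17 tested), fibroblast markers of 0.03 (7 of 15) and macrophage markers of 0.03 (11 of 17). Markers of T, B and natural killer cells had a median of -0.16 (5 of 22 tested). In whole tissue, fewer cells of a type and less RNA per cell cannot be told apart.

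DKK3 is the 1 gene of 542 with 3 or more tested probe sets on which every probe set placed the End-stage dogs outside the Week-2 dogs on the same side. On its brightest probe set the log2 signal was 9.07, 9.74 and 9.10 in End-stage dogs 1, 2 and 3, against 10.19, 10.58 and 10.37 in Week-2 dogs. Every End-stage dog lay below every Week-2 dog, and each of the 9 End-stage arrays lay below all 9 Week-2 arrays. The difference was -1.07 (SE 0.25, unadjusted p = 0.00075), a level 2.11 times higher at Week-2, and it did not pass adjustment (adjusted p = 0.999, limma). The second probe set gave 7.76, 7.59 and 7.85 at End-stage, against 9.30, 8.40 and 9.34 at Week-2, a difference of -1.27 (SE 0.34). The third gave 6.66, 7.12 and 6.71 at End-stage, against 7.85, 8.03 and 8.20 at Week-2, a difference of -1.20 (SE 0.25).

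Across the series, DKK3 peaked at Week-2. On the brightest probe set the stage means were 9.26 at Day-0, 8.95 at Day-3, 9.61 at Week-1, 10.38 at Week-2 and 9.30 at End-stage. The Week-2 dogs lay above all 12 other dogs of the series on this probe set and on the third, a position held by 18 of the 5278 genes (0.341%). Without End-stage dog 1 the differences on the 3 probe sets were -0.96, -1.29 and -1.11. On arrays with a median signal under 43 they were -1.27, -1.57 and -1.43. With the dog number as a block over all 15 dogs, an alternative added after the data were seen, the brightest probe set passed (-1.07, SE 0.13, adjusted p = 0.034), and the block over the 6 compared dogs gave an adjusted p of 0.164 for the same probe set.

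LPL had the widest difference among genes whose probe sets agreed in the higher direction. On the brighter probe set the log2 signal was 9.94, 10.89 and 11.00 in End-stage dogs, against 9.13, 9.48 and 9.50 in Week-2 dogs. The groups did not overlap, although End-stage dog 1 was nearer to the Week-2 dogs than to the other two of its group. The difference was 1.24 (SE 0.49, unadjusted p = 0.024), 2.36 times higher at End-stage. On the other it was 1.33 (SE 0.55, unadjusted p = 0.029), 2.52 times higher. Neither passed adjustment.

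LPL did not move in 1 direction over the stages. Its means on the brighter probe set were 8.93 at Day-0, 9.84 at Day-3, 10.46 at Week-1, 9.37 at Week-2 and 10.61 at End-stage, so the Week-2 dogs lay low between 2 stages with higher means. Against Day-0 the difference was 1.68 at End-stage and 0.44 at Week-2. Without End-stage dog 1 the End-stage minus Week-2 difference was 1.58. LPL is also made by fat cells, and the other adipocyte markers were read beside it. ADIPOQ, the fat cell hormone adiponectin, was at 3.86, 4.92 and 5.71 at End-stage, against 6.89, 5.11 and 3.78 at Week-2, a difference of -0.43 (SE 1.10). CIDEA, a lipid droplet protein, differed by -0.41 (SE 0.67), and the adipocyte list had 4 of 11 members tested with a median of -0.18, in which LPL itself is counted. The sign of that median turned with single dogs: it was 0.41 without Week-2 dog 1 and -0.52 without Week-2 dog 3. ADIPOQ ran from -1.17 without Week-2 dog 3 to 0.38 without Week-2 dog 1, and was 0.06 without End-stage dog 1. The part of fat cells in the LPL difference was not tested beyond these values.

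SELENBP1, a selenium-binding methanethiol oxidase, is the third and last gene with several probe sets that all had non-overlapping dogs and an unadjusted p under 0.05. Such agreement was rare: of 1576 genes with 2 or more tested probe sets, 7 (0.444%) had every probe set outside on the same side. In 8 genes, probe sets lay outside on opposite sides. Probe sets of a gene were read in the same dogs, so their agreement adds no replicate. They were DKK3, DYNC1I1 and FLOT1 on the lower side and LPL, SELENBP1, SAT1 and HNRNPM on the higher side, and they are named because the count is small, after their values were seen. SELENBP1 gave 8.65, 9.03 and 8.87 at End-stage, against 8.27, 8.12 and 8.64 at Week-2, on the brighter probe set. The difference was 0.51 (SE 0.16), and it was 0.44 (SE 0.14) on the other. Without End-stage dog 1 the 2 differences were 0.61 and 0.52. DYNC1I1, an intermediate chain of the cytoplasmic dynein motor, differed by -0.42 (SE 0.22) and -1.35 (SE 0.40). SAT1, which acetylates polyamines, differed by 0.41 (SE 0.26) and 0.38 (SE 0.21), with a mean of 9.39 at End-stage, against 9.36 at Day-0, on the brighter probe set. FLOT1 differed by -0.33 and -0.62, and by -0.06 and -0.28 on arrays with a median signal under 43. HNRNPM differed by 0.30 and 0.17, and by 0.04 on either probe set over those arrays.

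**Figure D3:**
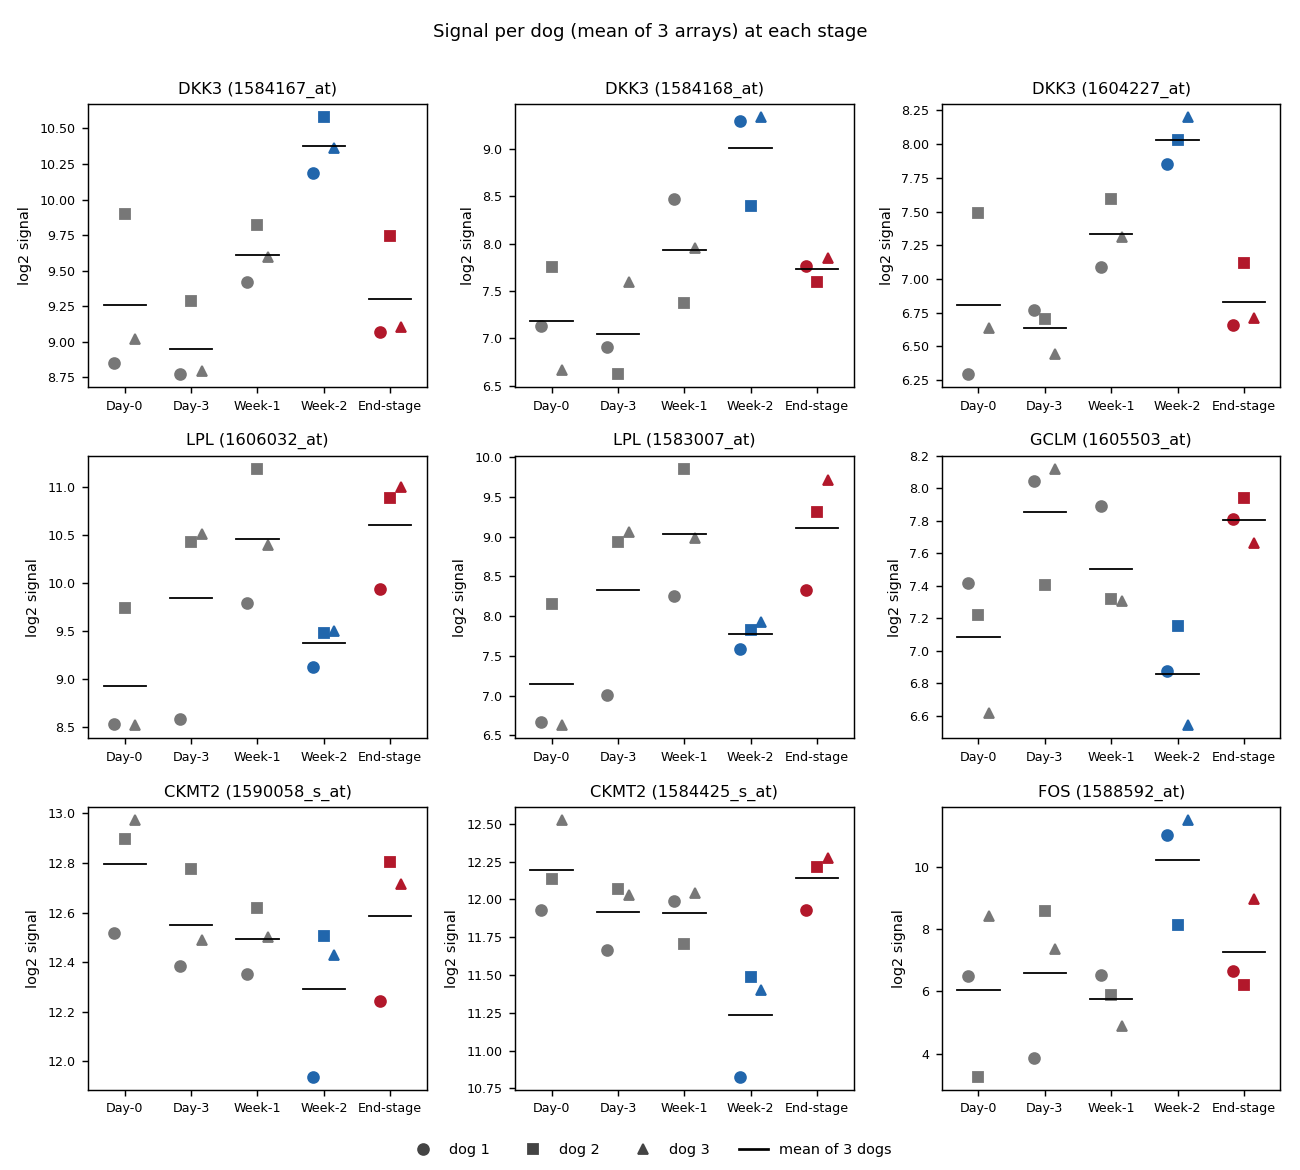
Log2 signal (y axis, mean of 3 arrays) of each dog at each stage (x axis, Day-0 to End-stage) for DKK3 on 3 probe sets, LPL on 2, GCLM, CKMT2 on 2, and FOS; symbols mark dog numbers and black lines the mean of 3 dogs, with End-stage red and Week-2 blue. DKK3 is highest at Week-2 and lower at End-stage on all 3 probe sets, with means of 10.38 and 9.30 on the brightest; LPL is higher at End-stage than at Week-2 on both; FOS is high in Week-2 dogs 1 and 3.

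GCLM, the modifier subunit of the enzyme that starts glutathione synthesis, lay higher at End-stage. Its log2 signal was 7.81, 7.94 and 7.66 in End-stage dogs, against 6.87, 7.15 and 6.54 in Week-2 dogs, a difference of 0.95 (SE 0.24, unadjusted p = 0.0015). The groups did not overlap, and 8 of 9 End-stage arrays lay above all Week-2 arrays. Day-3 was as high as End-stage, with means of 7.86 at Day-3 and 7.81 at End-stage. Without End-stage dog 1 the difference from Week-2 was 0.95. Of the 23 antioxidant defence genes tested, GCLM was the 1 with an unadjusted p under 0.05, a share near the 3.24% of all genes, and the median of the list was 0.02. PRDX5, a mitochondrial peroxidase, differed by 0.25 (SE 0.13), also without overlap, and GPX1, a glutathione peroxidase, by 0.18 (SE 0.14).

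CKMT2, the sarcomeric mitochondrial creatine kinase that passes phosphate from mitochondria to creatine, had probe sets of unequal size of difference. On the dimmer probe set the log2 signal was 11.93, 12.22 and 12.28 in End-stage dogs, against 10.83, 11.48 and 11.40 in Week-2 dogs. All 9 End-stage arrays lay above all 9 Week-2 arrays, and the Week-2 dogs lay below all 12 other dogs of the series. The difference was 0.90 (SE 0.20, unadjusted p = 0.00037). It passed in 1 alternative, the limma fit of all 45 arrays in which dogs were random blocks (adjusted p = 0.0056). That fit took single isolations as observations, those labelled End-stage dog 1 included. It used 1 correlation within dogs, 0.29, for all probe sets. The SE of this probe set was 0.15 there, in place of 0.20. The brighter probe set differed by 0.30 (SE 0.19) with overlapping dogs. Without End-stage dog 1 the differences were 1.01 and 0.47.

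MRPL16, a protein of the large mitochondrial ribosomal subunit, was the other named gene past the threshold in that fit, on the lower side (adjusted p = 0.043). Its log2 signal on the brighter probe set was 8.73, 8.47 and 8.49 in End-stage dogs, against 9.02, 9.54 and 9.68 in Week-2 dogs, a difference of -0.85 (SE 0.21), which was -0.93 without End-stage dog 1. Its second probe set split within both groups, at 7.64, 7.02 and 9.33 in End-stage dogs, against 7.59, 10.34 and 10.73 in Week-2 dogs. Over the 52 mitochondrial ribosomal proteins tested, MRPL16 included, the median was -0.01.

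Immediate early genes are switched on within minutes of a stimulus and code mostly for short-lived transcription factors and signal regulators. Their list held the lowest median of the 57 gene lists with 3 or more genes tested, -0.75 over 10 of 39 genes, beside 0.00 over all 5278 genes. All 10 estimates were below 0, while 2660 of the 5278 genes had one above 0. None of the 10 passed, 4 had an unadjusted p under 0.05, beside 3.24% of all genes, and in 0 of them were the dogs free of overlap, beside 8.30% of all genes. FOS, a subunit of the AP-1 factor, was at 6.66, 6.21 and 8.98 in End-stage dogs, against 11.04, 8.14 and 11.51 in Week-2 dogs. The difference of -2.95 had an SE of 1.32 and an interval from -5.77 to -0.12, and it was -2.64 without End-stage dog 1. Week-2 dogs 1 and 3 were high, and Week-2 dog 2 lay below End-stage dog 3.

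JUNB, another AP-1 subunit, was at 8.04, 7.84 and 8.33 at End-stage, against 10.25, 8.28 and 8.63 at Week-2. Here Week-2 dog 1 carried the difference of -0.98 (SE 0.36), which was -0.39 without it. IER2, an early response nuclear protein, was at 8.20, 8.78 and 9.07 at End-stage, against 10.44, 8.98 and 9.93 at Week-2, a difference of -1.10 (SE 0.42). KLF4, a zinc finger factor, differed by -0.64 (SE 0.29), and by -0.36 without End-stage dog 2. The other 6 members were the nuclear receptors NR4A1 (-1.27, SE 0.79) and NR4A2 (-0.43, SE 0.45), the matricellular protein CCN1 (-0.87, SE 0.52), the MAP kinase phosphatases DUSP1 (-0.42, SE 0.34) and DUSP6 (-0.11, SE 0.17), and the survival factor MCL1 (-0.09, SE 0.18). Single dogs moved several of these: CCN1 was -0.12 and NR4A1 -0.54 without Week-2 dog 3, NR4A1 was -2.44 without Week-2 dog 2, and NR4A2 was 0.00 without Week-2 dog 1.

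The level of the whole list, relative to all genes and to the Day-0 mean, was 0.30, 0.15 and 0.87 in End-stage dogs 1, 2 and 3, against 1.72, 0.42 and 1.83 in Week-2 dogs. The groups overlapped, with Week-2 dog 2 below End-stage dog 3, while each End-stage dog lay below the Week-2 dog of its own number, for the list and for FOS, JUNB and IER2. With the dog number as a block over the 6 dogs, the FOS difference had an SE of 0.41 (unadjusted p = 0.00019) and did not pass (adjusted p = 0.199, limma). The list median was -0.44 without Week-2 dog 1, -1.19 without Week-2 dog 2 and -0.38 without Week-2 dog 3, and it was -0.78 without End-stage dog 1. Over the Week-2 minus Day-0 comparison the same list had a median of 1.16, and over End-stage minus Day-0 one of 0.49. Both comparisons share dogs with the present one.

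**Figure D4:**
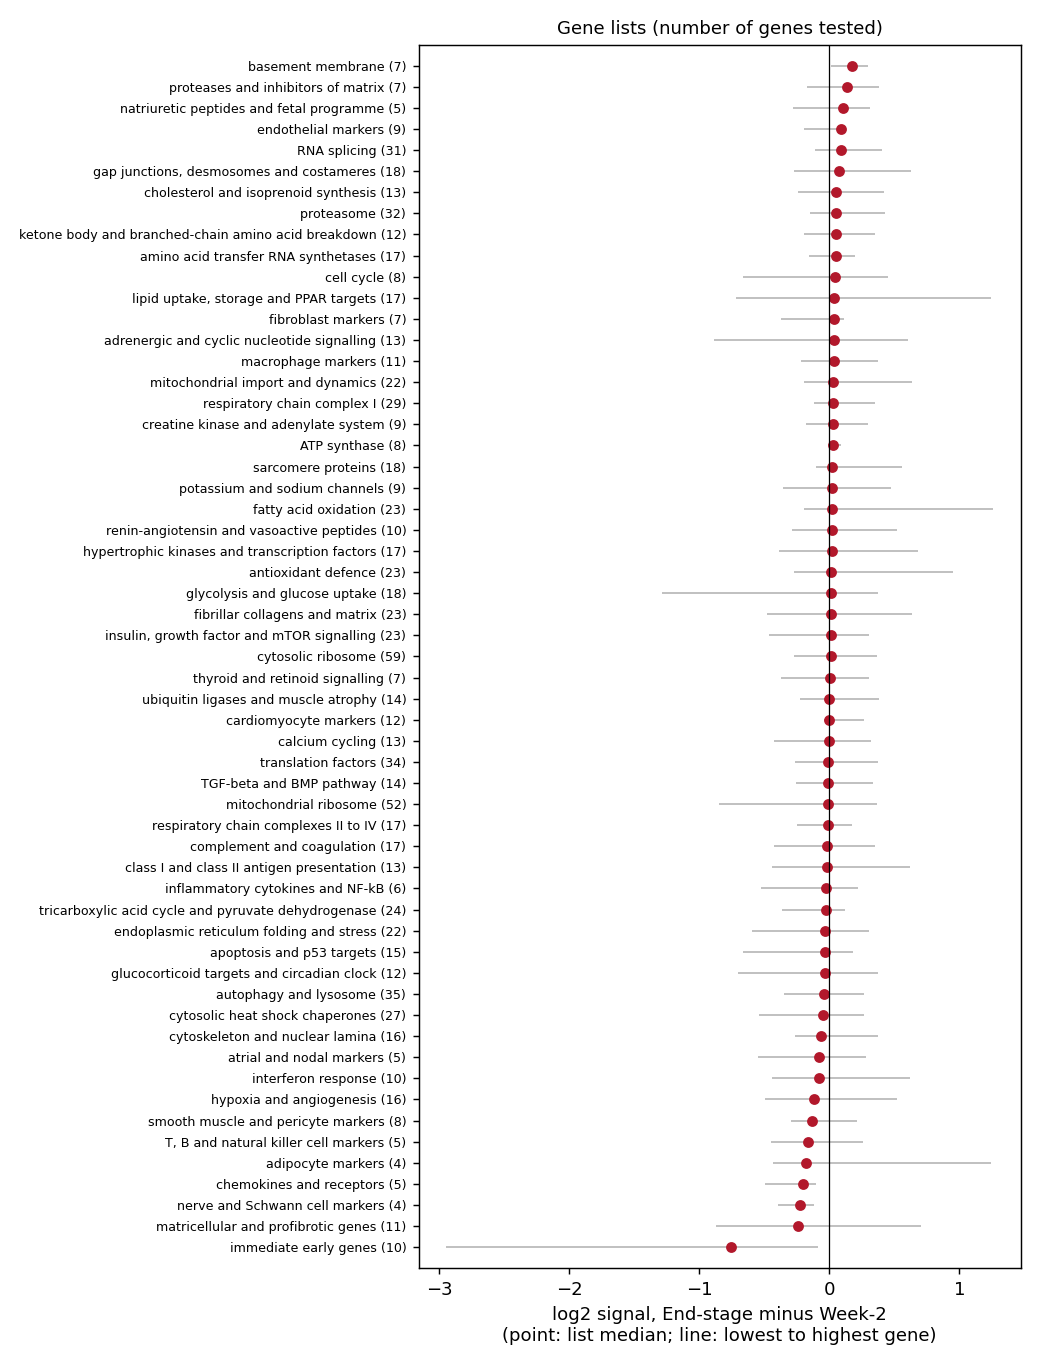
Median log2 difference, End-stage minus Week-2 (x axis, points), of 57 gene lists (y axis, number of genes tested in brackets), with lines from the lowest to the highest gene. List medians run from -0.75 for immediate early genes to 0.18 for basement membrane genes, and 46 of the 57 lie within 0.1 of 0.

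Over the 57 lists, 46 had a median within 0.1 of 0 and 4 had one beyond 0.2, and 0 members of any list passed. Besides immediate early genes, the 4 were matricellular and profibrotic genes (-0.24, 11 tested), nerve and Schwann cell markers (-0.23, 4 tested) and chemokines and receptors (-0.20, 5 tested). Array scaling matters at this size: centring each array on its median moved the median of all probe sets to 0.12, and it then counted 722 probe sets higher and 131 lower at an unadjusted p under 0.05. Quantile normalization counted 407 higher and 225 lower. The direction of list medians near 0 is therefore not read here; 7 of the 57 list medians kept their sign in every alternative.

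Genes of the contractile apparatus had differences centred near 0. MYH7, the slow cardiac myosin heavy chain, had log2 signals of 13.13, 13.73 and 13.57 in End-stage dogs, against 13.15, 13.56 and 13.72 in Week-2 dogs. The difference of 0.00 had an SE of 0.23, with an interval from -0.49 to 0.48. The 18 sarcomere genes tested of 22 had a median of 0.02, and in 0 of them were the dogs free of overlap, beside 8.30% of all genes. ACTA1, the skeletal actin of the fetal programme, was at 8.50, 8.55 and 8.91 at End-stage, against 8.43, 8.12 and 8.49 at Week-2. The dogs did not overlap on this brightest probe set, by a margin of the second decimal, and the difference was 0.31 (SE 0.36). The 4 tested probe sets of ACTA1 did not all place the End-stage dogs above the Week-2 dogs. Against Day-0 it was -1.21 at End-stage and -1.52 at Week-2. NPPA, NPPB and MYH6 were not analysed here.

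Calcium cycling genes, which release and reload calcium at each beat, had a median of -0.01 over 13 of 20 genes. ATP2A2, the pump that returns calcium to the sarcoplasmic reticulum, was at 12.48, 12.90 and 12.90 in End-stage dogs, against 12.50, 12.79 and 12.997 in Week-2 dogs. Its difference was -0.01 (SE 0.20). RYR2, the release channel, was at 11.07, 10.98 and 10.74 at End-stage, against 10.61, 10.55 and 10.83 at Week-2, 0.27 higher (SE 0.14). SLC8A1, the sodium-calcium exchanger, differed by -0.15 (SE 0.41). CACNA1C, the pore of the L-type calcium channel, was the 1 member of 13 without overlap, beside 8.30% of all genes, at 5.52, 5.65 and 5.65 in End-stage dogs and 5.96, 6.08 and 5.99 in Week-2 dogs. Its difference of -0.40 (SE 0.18) was 0.06 on arrays with a median signal under 43. S100A1, a calcium sensor that tunes these proteins, lay 0.32 higher (SE 0.15).

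Of the ion channels, KCNJ2, KCND3 and KCNIP2, which carry or tune repolarising potassium currents, differed by -0.20 (SE 0.39), -0.35 (SE 0.36) and 0.15 (SE 0.56); KCNJ2 was 0.24 on arrays with a median signal under 43. GJA1, the main ventricular gap junction protein connexin 43, varied far more between dogs than between stages. It was at 8.61, 7.43 and 9.01 in End-stage dogs, against 8.39, 7.29 and 8.94 in Week-2 dogs. In the adrenergic list (13 of 31 tested, median 0.03), ADRA1A, an alpha-1 receptor, differed by -0.89 (SE 0.39), with values of 5.04, 4.08 and 3.59 at End-stage, against 5.31, 5.38 and 4.70 at Week-2. PDE4D, which degrades cyclic AMP, lay 0.58 higher (SE 0.27). PDE5A, which degrades cyclic GMP, differed by -0.39 (SE 0.29) without overlap.

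**Figure D5:**
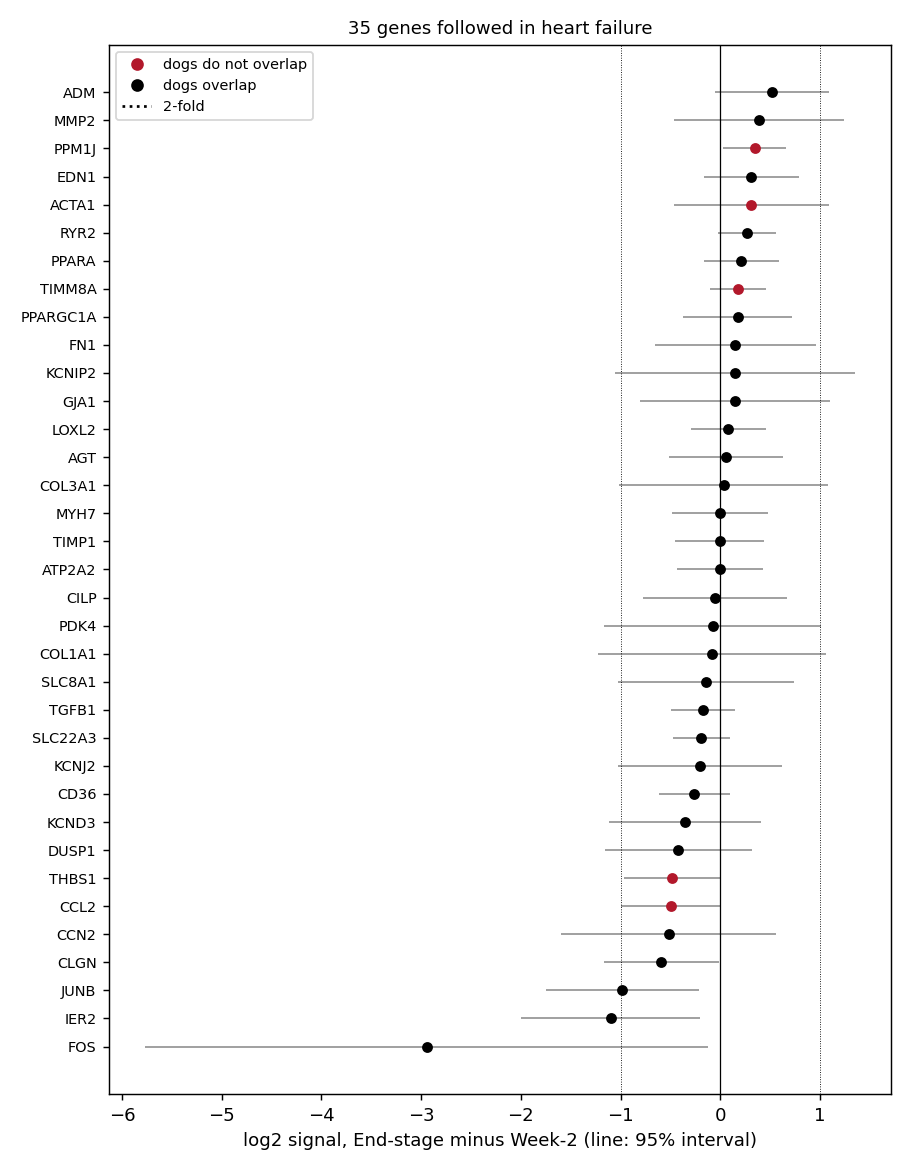
Log2 difference, End-stage minus Week-2 (x axis), of 35 genes followed in heart failure (y axis), with 95% intervals; red points are genes whose 3 End-stage dogs lie outside the range of the 3 Week-2 dogs, and dotted lines mark 2-fold. MYH7, ATP2A2, TIMP1 and COL3A1 sit near 0, and FOS, IER2 and JUNB lie farthest to the left with wide intervals.

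Matrix genes had a median difference from Day-0 of 0.34 at End-stage and 0.38 at Week-2. COL1A1, the main fibrillar collagen chain, was at 8.86, 9.68 and 9.52 in End-stage dogs, against 10.24, 9.41 and 8.66 in Week-2 dogs. The difference of -0.09 lay within the spread between dogs (SE 0.53). COL3A1 differed by 0.03 (SE 0.49) and FN1, fibronectin, by 0.15 (SE 0.38). CILP, an intermediate layer protein of matrix, and LOXL2, which cross-links collagen, differed by -0.05 (SE 0.34) and 0.08 (SE 0.17). Over 23 of 35 fibrillar collagen and matrix genes the median was 0.01, and 0 had dogs without overlap, beside 8.30% of all genes. COL6A1 was the 1 with an unadjusted p under 0.05, beside 3.24% of all genes. It lay 0.47 higher (SE 0.21), and 0.17 higher on arrays with a median signal under 43. The 7 basement membrane genes tested all had estimates above 0, with a median of 0.18. LAMB1, a laminin chain, was 0.29 higher (SE 0.19), and COL4A1 and COL4A2, the collagen IV chains, 0.19 (SE 0.22) and 0.18 (SE 0.19) higher. That median was 0.37 without End-stage dog 1, 0.03 without End-stage dog 3 and 0.04 on arrays with a median signal under 43.

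Matricellular proteins, secreted regulators of matrix and growth factors, included 3 genes of 11 without overlap, all with the End-stage dogs below, beside 4.32% of all genes on that side. THBS1, thrombospondin 1, which activates latent TGF-beta, was at 9.53, 9.59 and 10.04 in End-stage dogs, against 10.27, 10.13 and 10.21 in Week-2 dogs. The difference was -0.49 (SE 0.23, unadjusted p = 0.049), and it was -0.39 without End-stage dog 1. THBS1 lay above Day-0 by 1.29 at End-stage and by 1.78 at Week-2. The other 2 were ACTA2 (-0.15, SE 0.20) and TAGLN (-0.29, SE 0.19), which are smooth muscle proteins and are counted in that list too. CCN2, connective tissue growth factor, was at 10.63, 11.29 and 10.96 at End-stage, against 10.65, 11.48 and 12.30 at Week-2, with Week-2 dog 3 the highest, a difference of -0.52 (SE 0.51). SPP1, osteopontin, differed by 0.70 (SE 0.64), by 1.69 without Week-2 dog 3 and by -0.38 on arrays with a median signal under 43.

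Smooth muscle and pericyte markers, 8 of 16 tested, had 4 genes with every End-stage dog below every Week-2 dog, and none above, beside 4.32% of all genes below and 3.98% above. These were SMTN (-0.22, SE 0.13), TAGLN, ACTA2 and MYH11 (-0.21, SE 0.29), the last named after its values were seen. All are contractile or cytoskeletal proteins of vascular smooth muscle. SMTN, smoothelin, was at 10.31, 10.41 and 10.39 in End-stage dogs, against 10.44, 10.59 and 10.74 in Week-2 dogs, and the End-stage dogs lay below all 12 other dogs, as in 8 of the 5278 genes (0.152%). The differences were small, none had an unadjusted p under 0.05, and the list median of -0.13 was 0.00 after centring arrays on their medians.

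The genes past the threshold at Week-2 against Day-0 in these data were read at the last step with their own values; they were chosen on the same Week-2 dogs, so that nothing is drawn from their direction. CCL2, the monocyte chemoattractant, was at 6.46, 7.51 and 7.40 in End-stage dogs, against 7.60, 7.58 and 7.69 in Week-2 dogs. Its difference of -0.50 (SE 0.23) was -0.16 without End-stage dog 1. CLGN, a lectin chaperone of the endoplasmic reticulum best known from testis, differed by -0.59 (SE 0.27) and lay above Day-0 by 1.51 at End-stage and 2.11 at Week-2. SLC22A3, an organic cation transporter, differed by -0.19 (SE 0.13). PPM1J, a protein phosphatase, and TIMM8A, a chaperone of mitochondrial import, lay 0.34 (SE 0.15) and 0.18 (SE 0.13) higher.

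Mitochondrial energy genes had list medians near 0. The respiratory chain complex I list (29 of 38 tested) had a median of 0.03, and every one of the 29 intervals lay within 2-fold, beside 86.4% over all genes. The medians were -0.01 for complexes II to IV (17 tested), 0.02 for ATP synthase (8 tested), -0.02 for the tricarboxylic acid cycle (24 tested) and 0.02 for fatty acid oxidation (23 tested). Against Day-0 the complex I median was -0.23 at End-stage and -0.30 at Week-2, and the fatty acid oxidation median was -0.17 at End-stage and -0.21 at Week-2. NDUFB6, a complex I subunit, lay 0.35 higher (SE 0.15). TIMM8B, an import chaperone, lay 0.48 higher (SE 0.19), at 8.95, 9.21 and 9.24 in End-stage dogs and 8.75, 8.90 and 8.32 in Week-2 dogs.

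Of the enzymes that break down ketone bodies and branched-chain amino acids, 2 of 12 tested had End-stage dogs above all Week-2 dogs, beside 3.98% of all genes on that side. ACAT1, a mitochondrial thiolase of ketone body and fatty acid breakdown, was at 11.44, 11.14 and 11.39 in End-stage dogs, against 11.07, 10.84 and 11.01 in Week-2 dogs, 0.35 higher (SE 0.15). These values are from its brightest probe set. Its 3 tested probe sets did not all place the End-stage dogs above the Week-2 dogs. BDH1, which oxidises beta-hydroxybutyrate, was at 8.54, 8.80 and 8.59 at End-stage, against 8.32, 8.21 and 8.46 at Week-2, 0.31 higher (SE 0.14). The list median was 0.05. PDK4, a kinase that inhibits pyruvate dehydrogenase and so pyruvate oxidation, differed by -0.08 (SE 0.51), CD36, the fatty acid translocase, by -0.26 (SE 0.17), and the regulators PPARA and PPARGC1A by 0.21 (SE 0.18) and 0.17 (SE 0.26). PFKP, the platelet phosphofructokinase, differed by -1.29 (SE 0.66), with End-stage dogs at 6.20, 7.45 and 8.14 and Week-2 dogs at 8.83, 9.01 and 7.81, and by -0.75 without End-stage dog 1.

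Vasoactive peptides had 1 wide estimate. ADM, the vasodilator adrenomedullin, was at 9.74, 9.82 and 8.95 in End-stage dogs, against 8.76, 9.10 and 9.09 in Week-2 dogs, 0.52 higher (SE 0.27, unadjusted p = 0.071). End-stage dog 3 lay within the Week-2 range. EDN1, the vasoconstrictor endothelin 1, differed by 0.31 (SE 0.22), and AGT, angiotensinogen, by 0.06 (SE 0.27). TGFB1, a profibrotic cytokine, differed by -0.18 (SE 0.15). BID, a mediator of mitochondrial apoptosis, was at 7.54, 7.72 and 7.26 at End-stage on its brightest probe set, against 8.08, 8.06 and 7.98 at Week-2. The difference was -0.53 (SE 0.18, limma unadjusted p = 0.01) without overlap. BID had 2 tested probe sets, and the other did not place every End-stage dog below every Week-2 dog. The 15 apoptosis genes tested had a median of -0.04. SGK1, a kinase induced by glucocorticoids, differed by -0.70 (SE 0.33) without overlap, and by -0.45 without End-stage dog 1, and BHLHE41, a repressor of the circadian clock, lay 0.38 higher (SE 0.17).

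Since no probe set passed, the widest differences are given as the 12 in each direction with an unadjusted p under 0.05 and dogs without overlap, none of which passed adjustment. They ranged from 1.21 to 2.83 among the higher ones and from 1.07 to 1.64 in size among the lower ones. Most were dim: 7 of the 12 higher and 8 of the 12 lower probe sets had a mean log2 signal under 6, a level below which 28.6% of probe sets with 1 symbol lie. The LPL and DKK3 probe sets were the brightest among them.

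Several of these probe sets were at odds with brighter ones for the same gene. TRDN, triadin, which anchors the calcium release complex, lay 1.24 higher (SE 0.24) on a dim probe set, at 7.24, 6.68 and 6.26 in End-stage dogs and 5.20, 5.41 and 5.86 in Week-2 dogs. Its other 5 probe sets differed by -0.54 to -0.01, and the brightest by -0.01 (SE 0.26). PFKM, the muscle phosphofructokinase, lay 1.25 higher on a dim probe set and 0.09 and 0.14 higher on the bright ones. RPL35, a ribosomal protein, lay 1.34 higher on 1 dim probe set, and its brightest, at 11.51, 11.98 and 11.84 in End-stage dogs and 11.62, 11.94 and 11.78 in Week-2 dogs, differed by 0.00. AKAP9, an anchor for protein kinase A, lay 1.29 higher on 1 probe set and 0.27 and 0.41 on the others, and TTC14 lay 1.22 higher on 1 and 0.38 and 0.10 on the others. On the lower side, YBX3 (-1.07), CHPT1 (-1.52), PHF7 (-1.09) and SLC4A2 (-1.50) had brighter probe sets with differences between -0.22 and 0.21.

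The remaining genes had 1 tested probe set. TIA1, an RNA-binding protein of stress granules, lay 2.83 higher (SE 0.95), at 6.68, 5.37 and 5.69 in End-stage dogs and 4.07, 2.91 and 2.28 in Week-2 dogs. Its Week-2 values stand for signals under 22.8, the mean level a probe set needed to be tested. The TIA1 difference was 1.48 on arrays with a median signal under 43 (limma unadjusted p = 0.18). With the dog number as a block over the 6 dogs its SE was 0.35 (limma adjusted p = 0.167). MZF1, a zinc finger factor, lay 1.51 higher (SE 0.36) over all arrays and 0.34 higher over those under 43 (limma unadjusted p = 0.34). ARFIP1, an effector of small GTPases at the Golgi, lay 1.35 higher over all arrays and 0.54 over those under 43 (limma unadjusted p = 0.13). Its Week-2 mean of 4.19 also stands for a signal under 22.8. DNAL1, a light chain of axonemal dynein, and KIF1B, a kinesin motor, lay 1.38 (SE 0.43) and 1.21 (SE 0.40) higher, and 1.24 and 0.94 over those arrays. On the lower side were SLC13A2, a transporter of citric acid cycle intermediates (-1.64, SE 0.42), PLEKHG6 (-1.49, SE 0.36), NDNF, a secreted neurotrophic factor (-1.38, SE 0.33), and ANGPTL2, a secreted angiopoietin-like protein (-1.15, SE 0.34). On arrays with a median signal under 43 they differed by -1.12, -0.83, -1.10 and -0.89. The highest End-stage array of PLEKHG6 was at 4.39, a signal under 22.8.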

How the data were processed

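Signals of 45 Affymetrix canine arrays were used as the authors deposited them: linear intensity values, 1 per probe set, made with GCOS 1.4 and MAS5 per the submitters' processing notes. The deposited arrays share a scale, with a trimmed mean of 150.02 to 150.03 after 2% was cut from each end. Arrays give no read depth, and their number limits precision.

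Values were log2 transformed with no further scaling and averaged over the 3 isolations of each dog, the replicate. The 77 control probe sets, and the dimmest 40% of the others by mean log2 signal over all arrays, were left out, which kept 14301 above a signal of 22.8. Groups were compared with limma 3.58.1 in R 4.3.3 (lmFit on 15 dogs, eBayes with trend, Benjamini-Hochberg, two-sided). Symbols came from the platform annotation: 10549 of 23913 probe sets had 1 symbol, 138 several and 13149 none. The fit was tested on simulated data.

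Genes were named by a rule. It took those past the threshold, filled to 12 per direction with the largest differences that had an unadjusted p under 0.05 and dogs without overlap. It added 51 heart failure genes, of which 35 could be tested, and for each list at most 4 genes, those of lowest p. Outside the rule, and chosen after their values were seen, are DUSP6, FLOT1, MCL1, MYH11, NR4A1, NR4A2, SAT1, SELENBP1 and SPP1. The dimmer probe sets of CKMT2, HNRNPM and MRPL16 are outside it too, since list genes entered through their brightest probe set. They were added after values were seen. Members and lists were chosen with earlier results of these data known. Lists were described by counts and medians, with no test. Same-numbered dogs of the 2 groups deviated together (r = 0.23, 0.24 and 0.10 over probe sets), so the numbers were taken to pair the dogs, from the data and not from the labels. The main fit did not use this pairing, so its standard errors, p-values, intervals and shares treat the dogs as unpaired. With the dog number as a block over the 6 dogs, the SE of ACTA1 was 0.13 in place of 0.36. That of ANGPTL2 was 0.42 in place of 0.34. The alternatives tried were other scalings, filters and replicate handling, each dog left out, and 3 settings added after the data were seen.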

Additional observations from a re-analysis of the deposited data

How the results depend on the processing

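The count of 0 probe sets held in 20 of 23 alternatives. It became 2 higher and 1 lower with all 45 arrays and dogs as random blocks. Without 1 dog at a time it ranged from 0 to 1 higher and from 0 to 0 lower; the 1 was a probe set without a gene symbol, 1586572_at, when Week-2 dog 1 was left out. With the dog number as a replicate block over the 6 compared dogs there were 0 calls in each direction (smallest adjusted p = 0.082, with 452 higher and 441 lower at an unadjusted p under 0.05), and with the block over all 15 dogs, added after the data were seen, 0 higher and 1 lower. The blocked fit over 6 dogs changed no call. At an unadjusted p under 0.05 the counts moved with the scaling: 722 higher and 131 lower with median centring, and 368 higher and 985 lower with no filter on dim probe sets, against 271 and 329. For each gene result an estimate counted as turned round only where both values exceeded their own standard error, and 0 of 3697 values did so, over 162 gene results. Of 1368 list medians, 82 moved by more than the spread between dogs. Those of immediate early genes ran from -1.19 to -0.38 and did not. Their spread between dogs was 0.62 beside a median of -0.75, so this limit could hardly be passed and says little for that list. With 3 dogs a group, an exact test over dogs cannot go below p = 0.1, and how far dim probe sets lay above background was not measured here.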

Other observations

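A probe set with no gene symbol, 1586572_at, passed the adjusted threshold in 2 alternatives, and no other did so in more than 1. Its log2 signal was 7.39, 7.33 and 7.34 in End-stage dogs, against 7.27, 5.68 and 5.78 in Week-2 dogs, a difference of 1.11 (SE 0.33). The groups did not overlap, and Week-2 dog 1 lay near the End-stage dogs; without it the difference was 1.62 (SE 0.21). Week-2 dogs 2 and 3 lay low, and the difference from Day-0 was -0.12 at End-stage and -1.23 at Week-2.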
